A study of Mus musculus with 18 samples.

Results

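Tumour-infiltrating CD8+ T cells sorted for an Nr4a1 reporter (Nr4a1RFP+) were compared with tumour-infiltrating CD8+ T cells sorted for Tim-3 (Tim-3+), gene by gene, in 4 of the 18 RNA sequencing libraries of the series. There were 2 Nr4a1RFP+ libraries and 2 Tim-3+ libraries. Both groups came from OT-I cells, whose transgenic receptor recognises an ovalbumin peptide. They were taken from tumours at day 21 after inoculation and are labelled WT in genotype. The labels give neither the tumour line, the design of the reporter allele, the sort gates nor the age of the mice, and they do not say whether animals were pooled. The study also profiled cultured CD8+ T cells, of which 2 libraries infected with an Nr4a1 retrovirus (Nr4a1-OV) and 2 infected with the control virus (RV-GFP) are read here as a second measurement. These cultured cells had been stimulated again for 2 h with PMA and ionomycin, which act downstream of the antigen receptor. Levels are in RPKM, reads scaled to gene length and library size. The table lists 13537 genes, of which the 9508 at 1 RPKM or more in at least 2 of the 4 libraries were tested.

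NR4A1 (Nur77) is an orphan nuclear receptor whose gene is switched on by antigen receptor signals, so reporters of it mark recently signalled T cells. In tumours and chronic infection, a stem-like pool of CD8+ T cells that carries the transcription factor TCF-1 (Tcf7) and the surface receptor Ly108 (Slamf6) renews itself and gives rise to differentiated cells. The differentiated cells carry Tim-3 (Havcr2) and granzymes, lose TCF-1 and are the main killers of the exhausted lineage.

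The markers of the stem-like state were higher in Nr4a1RFP+ cells and the markers of the Tim-3+ state were lower, while the CD8 lineage genes were present in all 4 libraries. Tcf7 was at 102 and 104 RPKM in the Nr4a1RFP+ libraries, against 5.45 and 2.70 RPKM in the Tim-3+ libraries. Slamf6 was at 28 and 32.4 RPKM in Nr4a1RFP+ cells and at 3.63 and 4.07 RPKM in Tim-3+ cells. The groups did not overlap for either gene, as for 61.2% of all genes tested, and the Tim-3+ libraries kept some of both transcripts. Havcr2, the gene of the receptor used for the Tim-3+ sort, was at 18.4 and 13 RPKM in Nr4a1RFP+ cells, against 215 and 236 RPKM in Tim-3+ cells. Gzmb, which encodes granzyme B, was at 156 and 96.2 RPKM in Nr4a1RFP+ cells, against 1728 and 1915 RPKM in Tim-3+ cells. Cd8a ranged over 237 to 270 RPKM in Nr4a1RFP+ cells and 287 to 305 RPKM in Tim-3+ cells, and Cd4 reached at most 0.150 RPKM in every library. In these bulk libraries, fewer cells of a type and less RNA per cell cannot be told apart.

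The transcript of the reporter's own gene did not separate the groups by the test. Nr4a1 was at 113 and 115 RPKM in the Nr4a1RFP+ libraries, against 132 and 125 RPKM in the Tim-3+ libraries (log2 fold change -0.17, adjusted p = 0.364, limma). Both Nr4a1RFP+ libraries lay just below both Tim-3+ libraries. Of its paralogs, Nr4a2 was at 331 and 348 RPKM in Nr4a1RFP+ cells and at 291 and 307 RPKM in Tim-3+ cells (0.18, adjusted p = 0.398). Nr4a3 rose, at 30.6 and 27.6 RPKM against 19.4 and 20.1 RPKM in Tim-3+ cells (0.53, adjusted p = 0.0172). Without Nr4a1RFP+ replicate 1, Nr4a3 no longer passed (adjusted p = 0.227), nor did it without replicate 2 (adjusted p = 0.115).

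Across the transcriptome, changes ran in both directions in near-equal number. Of the 9508 genes tested, 1682 (17.7%) passed an adjusted p of 0.05, with 863 (9.08%) higher and 819 (8.61%) lower in Nr4a1RFP+ cells. The 9.08% and 8.61% over all genes tested are the background for the list counts below. Changes of at least 2-fold were 273 increases (2.87%) and 220 decreases (2.31%), and the log2 fold changes of the 9508 genes had a median of -0.009. All fold changes are of RPKM plus 1 on a log2 scale, which understates changes of low genes. Without Nr4a1RFP+ replicate 1 or replicate 2 the test called 924 and 763 genes, and without Tim-3+ replicate 1 or replicate 2 it called 2989 and 3359. Groups did not overlap for 5821 genes (61.2%). Through the filter, 230 genes entered because they reached 1 RPKM in both Nr4a1RFP+ libraries and in neither Tim-3+ library, and 138 entered by the reverse, so these had to differ. Libraries of a group correlated at r = 0.994 (Nr4a1RFP+) and 0.988 (Tim-3+) across genes, and libraries of different groups at 0.947 to 0.957. Nothing in the labels says that replicates are different animals, so the p-values measure the spread between these libraries, and an exact permutation test of 2 against 2 cannot go below p = 0.333.

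**Figure D1:**
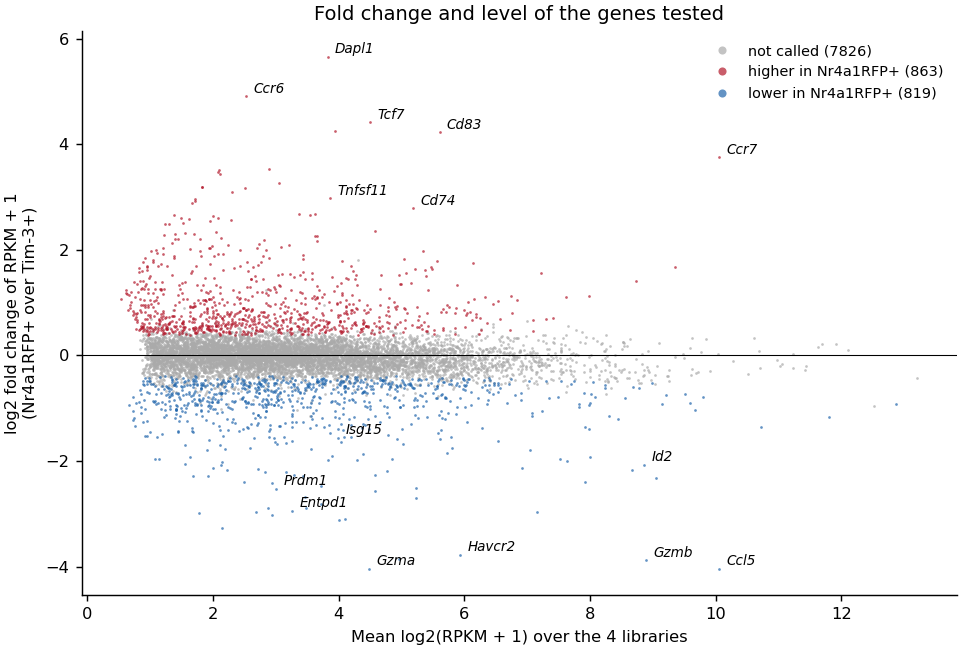
Each point is 1 of the 9508 genes tested, with its mean log2(RPKM + 1) over the 4 libraries on the x axis and its log2 fold change (Nr4a1RFP+ over Tim-3+) on the y axis. The 863 genes called higher are red, the 819 called lower are blue and names mark 15 genes of the text, among them Ccr7 at the upper right and Ccl5 at the lower right.

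Most tested transcription factors of the stem-like state rose in Nr4a1RFP+ cells. Of 16 listed factors 13 were tested, and 10 were called higher (76.9%, against 9.08% of all genes tested) and 0 lower. The median log2 fold change of the 13 was 0.81. Besides Tcf7 (log2 fold change 4.42, SE 0.24, adjusted p = 9.33e-05), the list was led by Id3, an inhibitor of E proteins. Id3 was at 8.33 and 8.45 RPKM in Nr4a1RFP+ cells and at 0.927 and 0.330 RPKM in Tim-3+ cells (2.55, SE 0.18, adjusted p = 0.00021). Id3, Bcl6 and Plagl1 entered the test only through the Nr4a1RFP+ libraries, so they could only come out higher. With 1 RPKM required in all 4 libraries, 7 listed factors were called higher and 0 lower. Tcf7, among the 10, was a marker given with the comparison. Bach2, a repressor of effector genes, was at 14 and 16.3 RPKM against 4.6 and 4.38 RPKM in Tim-3+ cells (1.55, adjusted p = 0.000301). Myb, which sustains the stem-like pool, was at 13.9 and 13.2 RPKM in Nr4a1RFP+ cells and at 4.46 and 3.56 RPKM in Tim-3+ cells (1.55, adjusted p = 0.000384). Both Nr4a1RFP+ libraries lay above both Tim-3+ libraries for Bach2 and for Myb, and groups did not overlap for 61.2% of all genes tested.

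The other called members were Ikzf2, which encodes Helios (log2 fold change 1.83), Bcl6 (1.06), Zeb1 (0.81), Foxp1 (0.57) and Lef1 (0.53), beside Plagl1 (0.73). Not every factor of the quiescent state moved. Foxo1 was at 8.89 and 7.45 RPKM in Nr4a1RFP+ cells and at 6.95 and 5.43 RPKM in Tim-3+ cells (0.36, adjusted p = 0.152), and Klf2, a driver of lymph node egress, was at 3.88 and 2.66 RPKM against 3.97 and 2.47 RPKM (0.03, adjusted p = 0.948). Satb1 did not pass either (0.46, adjusted p = 0.083). At an unadjusted p under 0.05, limma also gave 0 lower among the 13. The listed factor Tox2, under 1 RPKM in all 4 libraries and so outside the 13, was called lower by edgeR and DESeq2 on recovered reads and by limma with no filter. Leaving out Nr4a1RFP+ replicate 1 or replicate 2 ended the calls of Foxp1 (adjusted p = 0.158 and 0.122) and of Lef1 (adjusted p = 0.0974 and 0.218).

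Several receptors that guide T cells to lymphoid tissue were higher in Nr4a1RFP+ cells, and most tested receptors for inflammatory chemokines were lower. Of 12 lymphoid homing and survival receptors 9 were tested, with 5 called higher (55.6%) and 0 lower (median 1.18). Ccr7, the receptor for lymph node chemokines, reached 3717 and 4097 RPKM in Nr4a1RFP+ cells, against 252 and 332 RPKM in Tim-3+ cells (3.75, SE 0.19, adjusted p = 8.72e-05). Ccr7 was among the 10 most abundant genes of Nr4a1RFP+ cells, a set otherwise made of mitochondrial, cytoskeletal, MHC class I and ribosomal genes. Cxcr5, the receptor for entry into B cell follicles, was at 7.79 and 8.5 RPKM in Nr4a1RFP+ cells, against 0.117 and 0.230 RPKM in Tim-3+ cells (2.96, adjusted p = 4.67e-05). Cxcr5 therefore passed the filter only through the Nr4a1RFP+ libraries. Gpr183, an oxysterol receptor for positioning in lymphoid tissue (1.61), and Il7r, the interleukin-7 receptor chain of long-lived T cells (1.18), also rose. The egress receptor S1pr1 (0.52, adjusted p = 0.198) and Cd69, which retains cells in tissue (0.20, adjusted p = 0.626), overlapped between the groups. None of the 9 was called lower by edgeR or DESeq2 or had a lower level at an unadjusted p under 0.05 (0 genes), and the count of 5 higher was 8 without Tim-3+ replicate 1.

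Of 12 inflammatory chemokine receptors 10 were tested, with 2 called higher (20%) and 7 lower (70%, median -1.11). With 1 RPKM required in all 4 libraries, 1 was called higher and 4 lower. Cxcr6, which places T cells beside tumour dendritic cells, was at 127 and 85.8 RPKM in Nr4a1RFP+ cells, against 599.5 and 518 RPKM in Tim-3+ cells (-2.40, SE 0.20, adjusted p = 0.000436). Ccr2, for monocyte chemokines, was at 2.66 and 0.995 RPKM in Nr4a1RFP+ cells and at 24.7 and 17.7 RPKM in Tim-3+ cells (-3.02). Cx3cr1, a mark of effector-like cells, was at 14.8 and 12.5 RPKM against 30.0 and 35.2 RPKM (-1.20). The exceptions were Ccr6, the receptor for CCL20, and Ccr8. Ccr6 was at 25.9 and 35.8 RPKM in Nr4a1RFP+ cells, against 0.0421 and 0.0600 RPKM in Tim-3+ cells (4.90, SE 0.16, adjusted p = 3.01e-05), so it too was tested only through the Nr4a1RFP+ libraries. Ccr8 was at 83.8 and 89.3 RPKM in Nr4a1RFP+ cells and at 47.3 and 50.9 RPKM in Tim-3+ cells (0.81, adjusted p = 0.0035), but not without Nr4a1RFP+ replicate 2 (adjusted p = 0.0588).

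**Figure D2:**
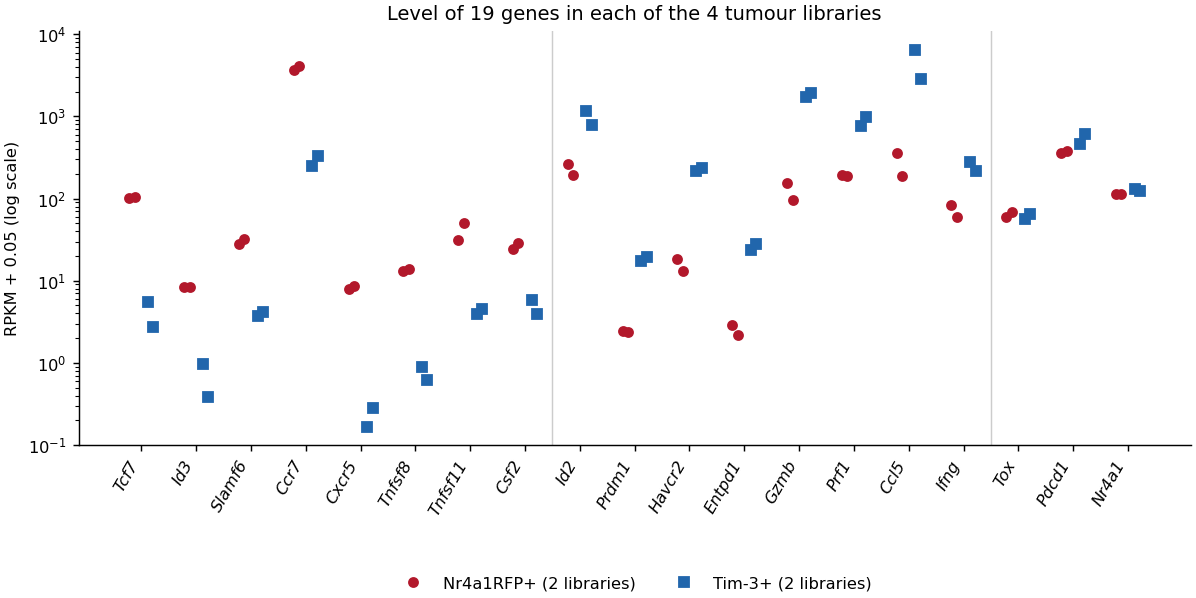
RPKM plus 0.05 on a log axis for 19 genes in the 2 Nr4a1RFP+ libraries (red circles, left of each pair) and the 2 Tim-3+ libraries (blue squares, right). The 8 genes on the left are higher in both Nr4a1RFP+ libraries, the 8 in the middle are lower in both, and Tox, Pdcd1 and Nr4a1 on the right did not pass the test.

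Most granzyme and granule genes were lower in Nr4a1RFP+ cells. Of 22 granzyme and granule genes 21 were listed and tested, with 2 called higher (9.52%) and 14 lower (66.7%, median -1.16). Prf1, the pore-forming perforin, was at 192 and 191 RPKM in Nr4a1RFP+ cells, against 759 and 975 RPKM in Tim-3+ cells (-2.16, SE 0.17, adjusted p = 0.000297). Gzma, which encodes the tryptase granzyme A, was at 7.22 and 2.71 RPKM in Nr4a1RFP+ cells, against 123.5 and 65.6 RPKM in Tim-3+ cells (-4.04, SE 0.41, adjusted p = 0.000859), and its libraries differed within each group as well. Gzmk, often linked to less differentiated effectors, fell with the others, to 25.9 and 27.6 RPKM, against 94.1 and 105 RPKM in Tim-3+ cells (-1.85). The clustered granzyme genes of chromosome 14 were lower together: Gzmf (-3.85), Gzmb (-3.88), Gzmc (-3.09), Gzmd (-2.70), Gzme (-2.51) and Gzmg (-1.52), the last tested through Tim-3+ cells alone. Gzmd, Gzme, Gzmf and Gzmg are near-identical copies, so reads may have been split among them.

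Granule genes that did not follow the granzymes were also seen. Gzmm, which encodes granzyme M, was higher in Nr4a1RFP+ cells, at 5.61 and 6.53 RPKM against 2.95 and 2.25 RPKM in Tim-3+ cells (0.98, adjusted p = 0.0037). Lamp1, a granule membrane protein used as a degranulation mark, was at 58.7 and 79.6 RPKM against 39.5 and 37.1 RPKM (0.82, adjusted p = 0.0134), but not without Nr4a1RFP+ replicate 2 (adjusted p = 0.131). Ctsw, a cathepsin of cytotoxic cells, did not pass the test (0.09, adjusted p = 0.708). Nkg7, a granule membrane protein, was one of the 10 most abundant genes of Tim-3+ cells and fell in Nr4a1RFP+ cells, at 2662 and 2164 RPKM against 6367 and 4508 RPKM (-1.16, adjusted p = 0.0211). The Nkg7 call was lost when Nr4a1RFP+ replicate 1 was left out (adjusted p = 0.139), when replicate 2 was (adjusted p = 0.332) and with no filter on low values (adjusted p = 0.0976).

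Serpins, intracellular inhibitors that shield cytotoxic cells from their own proteases, were lower in part. Of 8 listed and tested, 5 were called lower (62.5%) and 0 higher (median -0.88). Serpina3f was at 5.18 and 3.99 RPKM in Nr4a1RFP+ cells and at 29.4 and 30.6 RPKM in Tim-3+ cells (-2.48, SE 0.13, adjusted p = 9.05e-05). Serpina3g, a cathepsin inhibitor, was at 37.4 and 33.8 RPKM against 75.1 and 78.7 RPKM (-1.09). Serpinb9, the inhibitor of granzyme B, was at 163 and 164 RPKM against 288 and 333 RPKM (-0.92, adjusted p = 0.00415). Its fold change was much smaller than that of Gzmb, and its adjusted p was 0.0562 with Nr4a1RFP+ replicate 1 left out and 0.0611 with replicate 2 left out. The serpin count of 5 was 3 in each of these fits.

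Inhibitory receptor genes were called in both directions, and 4 of the best-known ones did not pass the adjusted threshold. Of 22 inhibitory receptor and ectoenzyme genes 21 were tested, with 4 called higher (19%) and 8 lower (38.1%, median -0.40). The 8 include Havcr2, the gene of the receptor used for the Tim-3+ sort, so its call is not independent of the sort. With 1 RPKM required in all 4 libraries, 3 were called higher and 7 lower. Pdcd1, which encodes PD-1, was at 357 and 376 RPKM in Nr4a1RFP+ cells, against 461 and 607.5 RPKM in Tim-3+ cells (-0.53, adjusted p = 0.0839). Tigit was at 1141 and 1275 RPKM in Nr4a1RFP+ cells and at 1181 and 1406 RPKM in Tim-3+ cells (-0.10, adjusted p = 0.768). Lag3 (-0.39, adjusted p = 0.122) and Ctla4 (-0.40, adjusted p = 0.0737) did not pass either, with levels over 222 RPKM in all 4 libraries. Thus 4 checkpoint genes were abundant in both sorted populations, and only Tigit overlapped between them. The other 3 lay lower in both Nr4a1RFP+ libraries, and 12 of the 21 genes were lower at an unadjusted p under 0.05, with 11 called lower by edgeR and 12 by DESeq2 on recovered reads.

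Among the inhibitory genes that fell beside Havcr2, Cd244a, which encodes the SLAM receptor 2B4, was at 1.42 and 1.19 RPKM in Nr4a1RFP+ cells, against 16.48 and 17.5 RPKM in Tim-3+ cells (-2.97, SE 0.12, adjusted p = 4.67e-05). Entpd1, which encodes the ATP-degrading ectoenzyme CD39, was at 2.88 and 2.11 RPKM against 23.4 and 27.9 RPKM (-2.94). Klrg1, a receptor of terminal effectors, was at 0.777 and 0.666 RPKM against 5.63 and 9.57 RPKM (-2.28), so it was tested through Tim-3+ cells alone. Cd38 (-1.08), Lilrb4a (-1.38), Cd200r1 (-1.03) and Cd200r4 (-1.76) fell as well. The genes that rose were Nt5e, which encodes the AMP-degrading ectoenzyme CD73 (2.08), Btla (1.88), Cd200 (1.37) and Cd101 (0.88, adjusted p = 0.00499), of which Nt5e passed the filter only through Nr4a1RFP+ cells. Nt5e was at 5.98 and 8.42 RPKM in Nr4a1RFP+ cells and at 0.909 and 0.934 RPKM in Tim-3+ cells, so the pair of enzymes that act in sequence from ATP to adenosine moved in opposite directions. The call of Cd101 ended without Nr4a1RFP+ replicate 2 (adjusted p = 0.0586), and the count of 4 higher was 7 without Tim-3+ replicate 1.

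Regulators of effector differentiation were lower in part, while Tox, Eomes, Batf, Irf4 and Nfatc1 were not called. Of 18 effector and exhaustion transcription factors 17 were tested, with 1 called higher (5.88%) and 4 lower (23.5%, median -0.25). Prdm1, which encodes Blimp-1, was at 2.39 and 2.30 RPKM in Nr4a1RFP+ cells, against 17.4 and 19.2 RPKM in Tim-3+ cells (-2.53, SE 0.11, adjusted p = 6.39e-05). Id2, the E-protein inhibitor of effector cells, was at 263 and 195 RPKM against 1162 and 783 RPKM (-2.07, adjusted p = 0.00141), the opposite direction to its relative Id3. Ikzf3, which encodes Aiolos, fell (-0.89). Runx3, a driver of the cytotoxic lineage, fell as well (-0.51, adjusted p = 0.0266), but its adjusted p was 0.205 and 0.212 with Nr4a1RFP+ replicate 1 or replicate 2 left out. Rora, an orphan nuclear receptor, rose (1.15). Tox, the factor that fixes the exhausted chromatin state, was at 60 and 67.8 RPKM in Nr4a1RFP+ cells and at 57.0 and 65.3 RPKM in Tim-3+ cells (0.06, adjusted p = 0.783). Tbx21, which encodes T-bet, was at 38.2 and 37.9 RPKM against 48.2 and 53.0 RPKM and lay just outside the threshold (-0.40, adjusted p = 0.0501). Eomes (0.45, adjusted p = 0.0711), Batf (-0.28), Irf4 (-0.28) and Nfatc1 (-0.14) did not pass. Without Tim-3+ replicate 1, the count of 4 lower was 7. The count of 1 higher was 3 when Tim-3+ replicate 2 was left out, and 2 when Tim-3+ replicate 1 was, with a replicate block and by DESeq2.

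Genes induced by recent stimulation moved in both directions, with Fos, Jun, Rel, Nfkb1 and Nfkb2 higher and Egr1 lower. Of 26 activation-induced transcription factor genes 25 were tested, with 7 called higher (28%) and 4 lower (16%, median 0.16). Egr1, an immediate early factor of the ERK pathway, was at 29.9 and 28.7 RPKM in Nr4a1RFP+ cells, against 98.1 and 105 RPKM in Tim-3+ cells (-1.76, SE 0.11, adjusted p = 0.000139). Its relatives Egr2 (-0.46, adjusted p = 0.0954) and Egr3 (-0.39, adjusted p = 0.194) had the same sign without passing. Atf3 (-0.98) and Ier3 (-0.97) were called lower too. Klf4, a quiescence factor, was at 28.6 and 27.0 RPKM in Nr4a1RFP+ cells and at 12.4 and 7.20 RPKM in Tim-3+ cells (1.46, adjusted p = 0.00427).

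The AP-1 genes Fos (log2 fold change 0.91) and Jun (0.82), the NF-kB genes Rel (0.80), Nfkb1 (0.80) and Nfkb2 (0.48), and Myc (0.80) all rose by less than 2-fold. Other AP-1 and NF-kB genes did not pass: Fosb (0.31), Fosl2 (0.16), Junb (0.33), Jund (-0.39), Relb (0.39) and Nfkbia (0.33). Rel was at 72.3 and 78.8 RPKM in Nr4a1RFP+ cells, against 42.4 and 43.2 RPKM in Tim-3+ cells. None of these 6 calls held in each of the fits that left out 1 library. Without Nr4a1RFP+ replicate 1 the adjusted p was 0.0554 for Fos, 0.0773 for Nfkb1, 0.0854 for Myc and 0.235 for Nfkb2. Without Nr4a1RFP+ replicate 2 it was 0.0759 for Jun, 0.0595 for Rel and 0.306 for Nfkb2. The number of listed factors called higher was 3 and 4 without these libraries, and 11 and 10 without Tim-3+ replicate 1 or replicate 2. The number called lower was 9 without Tim-3+ replicate 2.

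**Figure D3:**
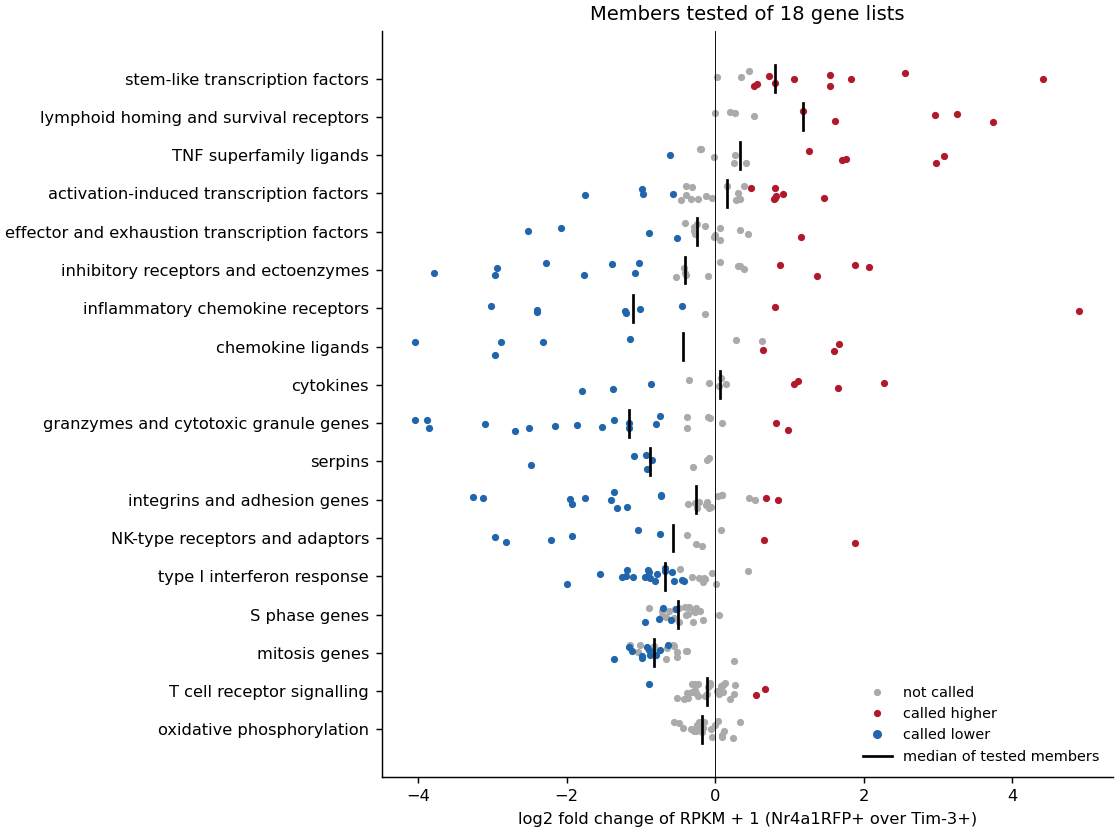
Each point is a tested member of 1 of 18 gene lists, placed by its log2 fold change (Nr4a1RFP+ over Tim-3+) and coloured by its call at an adjusted p of 0.05, with a bar at each list's median. The medians run from 1.18 for lymphoid homing and survival receptors to -1.16 for granzymes and cytotoxic granule genes, while T cell receptor signalling and oxidative phosphorylation stay close to 0.

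Some ligands of the TNF superfamily, through which T cells signal to antigen-presenting and stromal cells, rose in Nr4a1RFP+ cells. All 12 listed ligands were tested, with 5 called higher (41.7%) and 1 lower (8.33%, median 0.34). Tnfsf8, which encodes CD30 ligand, was at 12.9 and 14 RPKM in Nr4a1RFP+ cells and at 0.834 and 0.576 RPKM in Tim-3+ cells (3.09, SE 0.12, adjusted p = 5.41e-05), entering the test through Nr4a1RFP+ cells alone. Tnfsf11, which encodes RANKL, was at 31.6 and 50.5 RPKM against 3.91 and 4.54 RPKM (2.98, adjusted p = 0.000221). Tnfsf4, which encodes OX40 ligand, was at 126 and 131 RPKM in Nr4a1RFP+ cells, against 30.8 and 44.9 RPKM in Tim-3+ cells (1.76, adjusted p = 0.000926). Cd70 (1.70) and Tnfsf9, which encodes 4-1BB ligand (1.26), rose as well. The groups did not overlap for these 5 called genes, as for 61.2% of all genes tested. Tnf itself was lower, at 32.3 and 25.8 RPKM against 47.5 and 42.1 RPKM (-0.61, adjusted p = 0.026), but not without Nr4a1RFP+ replicate 2 (adjusted p = 0.293). Lta, Ltb, Tnfsf10, Tnfsf13b, Tnfsf14 and Cd40lg were not called. The count of 5 higher was 8 without Tim-3+ replicate 1.

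Of 18 TNF receptor, costimulatory and death receptor genes 17 were tested, with 6 called higher (35.3%) and 2 lower (11.8%, median 0.11). With 1 RPKM required in all 4 libraries, 3 were called higher. Tnfrsf4, which encodes OX40, was at 278 and 296 RPKM in Nr4a1RFP+ cells and at 136 and 129 RPKM in Tim-3+ cells (1.11), so receptor and ligand of this pair were both higher. Tnfrsf26 (2.56), Tnfrsf25, which encodes DR3 and was tested through Nr4a1RFP+ cells alone (2.20), and Fas, the death receptor (1.49), rose too, while Cd7 fell (-1.97). Tnfrsf9, which encodes 4-1BB, was at 573 and 542 RPKM against 629 and 721 RPKM and did not pass (-0.27, adjusted p = 0.278). The count of 2 lower was 1 without either Nr4a1RFP+ library, 5 and 4 without Tim-3+ replicate 1 or replicate 2, and 4 by DESeq2.

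Secreted mediators moved in both directions, with GM-CSF and XCL1 higher and interferon gamma and several CC chemokines lower in Nr4a1RFP+ cells. Of 19 cytokine genes 14 were listed and 12 tested, with 4 called higher (33.3%) and 3 lower (25%, median 0.06). Csf2, which encodes the growth factor GM-CSF, was at 24.4 and 29.1 RPKM in Nr4a1RFP+ cells, against 5.74 and 3.87 RPKM in Tim-3+ cells (2.27, SE 0.18, adjusted p = 0.000319). Il3 was at 1.86 and 2.46 RPKM in Nr4a1RFP+ cells and is listed at 0 in both Tim-3+ libraries, and Lif was at 1.21 and 1.01 RPKM against 0 and 0.0160 RPKM. Il3 and Lif were tested through Nr4a1RFP+ cells alone, and the count of 4 higher was 2 with 1 RPKM required in all 4 libraries. Ifng was at 82.5 and 59.2 RPKM in Nr4a1RFP+ cells and at 278 and 217 RPKM in Tim-3+ cells (-1.80, adjusted p = 0.0012). Il10, an inhibitory cytokine, was at 0.676 and 0.462 RPKM against 1.94 and 1.75 RPKM (-0.86) and was tested through Tim-3+ cells alone, and Csf1 fell too (-1.38). Il2 was near 1 RPKM in every library (0.14, adjusted p = 0.439).

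Of 12 chemokine ligands 11 were listed and 10 tested, with 3 called higher (30%) and 5 lower (50%, median -0.44). Xcl1, which attracts cross-presenting dendritic cells, was at 1226 and 1110 RPKM in Nr4a1RFP+ cells, against 515 and 260.4 RPKM in Tim-3+ cells (1.67, SE 0.30, adjusted p = 0.0102). Ccl5 was at 363 and 188 RPKM in Nr4a1RFP+ cells, against 6425 and 2885 RPKM in Tim-3+ cells (-4.04, SE 0.43, adjusted p = 0.00109). Both groups held more Ccl5 in replicate 1, yet they stayed far apart. Ccl3 (-2.97), Ccl4 (-2.32), Ccl9 (-2.88) and Ccl6 (-1.15) fell in the same direction, and all 4 attract myeloid cells or effector T cells. Ccl6 was tested through Tim-3+ cells alone, and 1 listed ligand was tested through Nr4a1RFP+ cells alone. With 1 RPKM required in all 4 libraries, 2 were called higher and 4 lower. The count of 3 higher was 5 without Tim-3+ replicate 2.

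Both chains of the interleukin-12 receptor were lower in Nr4a1RFP+ cells. Of 29 receptor and feedback genes 26 were tested, with 6 called higher (23.1%) and 6 lower (23.1%, median -0.007). Over all genes tested the shares were 9.08% higher and 8.61% lower. Il12rb1 was at 4.2 and 4.21 RPKM in Nr4a1RFP+ cells and at 10.7 and 13.8 RPKM in Tim-3+ cells (-1.34), and Il12rb2 was at 3.32 and 3.62 RPKM against 10.9 and 15.3 RPKM (-1.64). For both chains the Nr4a1RFP+ libraries lay below the Tim-3+ libraries, and groups did not overlap for 61.2% of all genes tested. Il9r, tested through the Nr4a1RFP+ libraries alone, was at 2.62 and 3.85 RPKM against 0.128 and 0.0703 RPKM (1.93). Ifnar2, a chain of the type I interferon receptor, was higher, at 14.5 and 14.3 RPKM in Nr4a1RFP+ cells against 6.97 and 6.74 RPKM in Tim-3+ cells (0.97, adjusted p = 0.00115). The count of 6 higher was 3 and 2 without Nr4a1RFP+ replicate 1 or replicate 2, and the count of 6 lower was 3 without replicate 2.

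Part of the integrin and adhesion genes were lower. Of 30 such genes 26 were tested, with 2 called higher (7.69%, near the 9.08% of all genes tested), 11 lower (42.3%) and 13 not called (median -0.26). The count of 2 higher was 1 without Nr4a1RFP+ replicate 1 and was 5 when Tim-3+ replicate 2 was left out, and it was 4 with a replicate block, by edgeR and by DESeq2. Adgrg1, the adhesion receptor GPR56 of cytotoxic cells, was at 0.477 and 0.372 RPKM in Nr4a1RFP+ cells and at 12.3 and 13.2 RPKM in Tim-3+ cells (-3.27), and was tested through Tim-3+ cells alone. Adam8, a surface metalloproteinase, was at 5.36 and 3.68 RPKM against 43.0 and 50.1 RPKM (-3.12). The calcium-binding genes S100a4 (-1.93), S100a6 (-1.96) and S100a11 (-1.19) and the galectin gene Lgals3 (-1.40) fell. S100a4 was at 149 and 113 RPKM in Nr4a1RFP+ cells, against 458 and 537.5 RPKM in Tim-3+ cells. Of 18 NK-type receptor and adaptor genes 12 were tested, with 2 called higher and 6 lower (median -0.56), and 1 higher without Nr4a1RFP+ replicate 2 or with 1 RPKM required in all 4 libraries. Fcer1g, a signalling adaptor of NK-type receptors, was at 4.78 and 3.31 RPKM in Nr4a1RFP+ cells and at 37.7 and 30.9 RPKM in Tim-3+ cells (-2.82), and its relative Tyrobp (-1.03) and the Ly49 genes Klra3 (-2.21) and Klra7 (-1.92) also fell. The Ly49 genes are close copies, so their reads may be shared. Klrb1b ran the other way, at 5.41 and 6.07 RPKM against 0.965 and 0.703 RPKM (1.88), but it reached the test through Nr4a1RFP+ cells only.

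Most tested genes of the type I interferon response were lower. Of 33 listed genes 31 were in the table and 27 were tested, with 18 called lower (66.7%) and 0 higher (median -0.68). At an unadjusted p under 0.05 limma gave 1 higher, and edgeR and DESeq2 on recovered reads called 1 higher each. Isg15, a ubiquitin-like modifier, was at 7.86 and 8.75 RPKM in Nr4a1RFP+ cells, against 31.3 and 22.1 RPKM in Tim-3+ cells (-1.56, SE 0.17, adjusted p = 0.0012). Ifit1, Ifit3 and Rtp4, which restrain viral RNA or virus entry, fell by 1.19, 1.11 and 1.26 on the log2 scale. Ly6c2, a surface protein of memory and effector T cells that interferon raises, was at 120.1 and 80.5 RPKM in Nr4a1RFP+ cells and at 432.5 and 358 RPKM in Tim-3+ cells (-1.99). The signal transducer gene Stat2 (-0.04, adjusted p = 0.829) and the transcription factor gene Irf7 (-0.17, adjusted p = 0.357) were not called. The count of 18 was 12 without Nr4a1RFP+ replicate 1 and 11 without Nr4a1RFP+ replicate 2, against 20 without either Tim-3+ library.

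The promoters of several of these genes, from 250 bases before to 50 after the start in RefSeq (GRCm38.p6), carry the core of the interferon-stimulated response element, GAAANNGAAA, read on either strand. A promoter was found for 19 of the 27 tested interferon genes, and 11 of these (57.9%) held the core, against 1079 of 27025 genes with a promoter (3.99%). The list was chosen as interferon response genes, so this share describes the list and not the comparison of the groups. Among its genes, the core was in 7 of 14 called lower (50%) and in 4 of 5 not called (80%). The windows below show 3 genes that fell and Bst2, which did not pass (-0.48, adjusted p = 0.0537), with every matched base in capitals and the gene's own strand read 5′ to 3′.
Isg15, chr4:156200867-156200916, minus strand: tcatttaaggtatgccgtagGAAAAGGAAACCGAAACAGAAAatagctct
Ifit1, chr19:34640765-34640814, plus strand: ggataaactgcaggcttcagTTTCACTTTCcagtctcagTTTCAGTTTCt
Ifit3, chr19:34583353-34583402, plus strand: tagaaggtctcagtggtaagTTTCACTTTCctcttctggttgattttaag
Bst2, chr8:71537573-71537622, minus strand: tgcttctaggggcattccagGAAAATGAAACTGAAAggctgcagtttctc
In these windows Isg15 holds 3 overlapping matches and Bst2 holds 2, while the 2 matches of Ifit1 lie apart. A match is a description of the letters and not evidence that a factor binds.

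The same promoters were read for the NBRE octamer AAAGGTCA, the site bound by NR4A monomers, and for the TCF/LEF heptamer CTTTGAT, on both strands. The NBRE was in 3 of 196 promoters found for genes at least 2-fold higher (1.53%), in 4 of 174 for genes at least 2-fold lower (2.3%), in 88 of 7707 for genes tested (1.14%) and in 1.7% of all genes with a promoter. The TCF/LEF heptamer was in 5.1%, 4.6%, 3.06% and 4.29% of these sets. These shares were not tested against each other. The 3 higher genes with an NBRE were Tcf7, Adh4 and Fhit, and the 4 lower ones were Gzmd, Gzme, Ccl6 and Bco1. Tcf7, Gzmd and Gzme are shown as members of the stem-like and the granzyme lists. The octamer, which lies on the opposite strand in all 3, is in capitals.
Tcf7, chr11:52282581-52282628, minus strand: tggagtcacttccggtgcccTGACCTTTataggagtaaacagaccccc
Gzmd, chr14:56132713-56132760, minus strand: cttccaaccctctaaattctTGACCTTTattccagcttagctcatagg
Gzme, chr14:56120746-56120793, minus strand: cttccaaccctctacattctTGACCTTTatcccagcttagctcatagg
The Tcf7 match lies 13 bases before the RefSeq start used here. Gene models can differ in their starts, and in the annotation used for gene coordinates (GENCODE M21) this position is inside the gene.

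Some cell cycle genes were lower in Nr4a1RFP+ cells, and here the Tim-3+ libraries differed from each other. Of 26 mitosis genes 25 were tested, with 11 called lower (44%) and 0 higher (median -0.82). Of 26 S phase genes, which serve DNA replication, all were tested, with 5 called lower (19.2%) and 0 higher (median -0.51). Birc5, which encodes survivin, was at 7.48 and 7.46 RPKM in Nr4a1RFP+ cells, against 16.6 and 25.7 RPKM in Tim-3+ cells (-1.36, SE 0.19, adjusted p = 0.00349). Ube2c, which drives mitotic exit, was at 3.71 and 3.32 RPKM against 7.22 and 11.4 RPKM (-1.16, adjusted p = 0.00735). Mki67, the proliferation antigen Ki-67, was at 5.02 and 4.84 RPKM in Nr4a1RFP+ cells and at 7.33 and 13.3 RPKM in Tim-3+ cells (-0.88, adjusted p = 0.0436).

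Tim-3+ replicate 2 was above Tim-3+ replicate 1 in 25 of the 25 tested mitosis genes, with a median difference (replicate 1 minus replicate 2) of -0.73 on the log2 scale. For S phase genes it was above in 24 of 26, with a median of -0.63. Between the Nr4a1RFP+ libraries the median was -0.04 for mitosis genes and 0.04 for S phase genes. No gene of either list was higher at an unadjusted p under 0.05 in limma or called higher by edgeR or DESeq2 (0 in each). The mitosis count of 11 was 24 without Tim-3+ replicate 1, 16 without Tim-3+ replicate 2, and 3 and 2 without Nr4a1RFP+ replicate 1 or replicate 2. It was 3 with no filter on low values, 7 with a pseudocount of 5, 21 with a replicate block, 19 by edgeR and 22 by DESeq2 on recovered reads. The S phase count of 5 was 22 and 8 without Tim-3+ replicate 1 or replicate 2, and 2 and 0 without Nr4a1RFP+ replicate 1 or replicate 2. It was 2 with no filter, 10 with a replicate block, 11 by edgeR and 13 by DESeq2. The call of Mki67 ended without either Nr4a1RFP+ library (adjusted p = 0.105 and 0.139), with no filter on low values (adjusted p = 0.0899) and with a pseudocount of 5 (adjusted p = 0.0575).

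**Figure D4:**
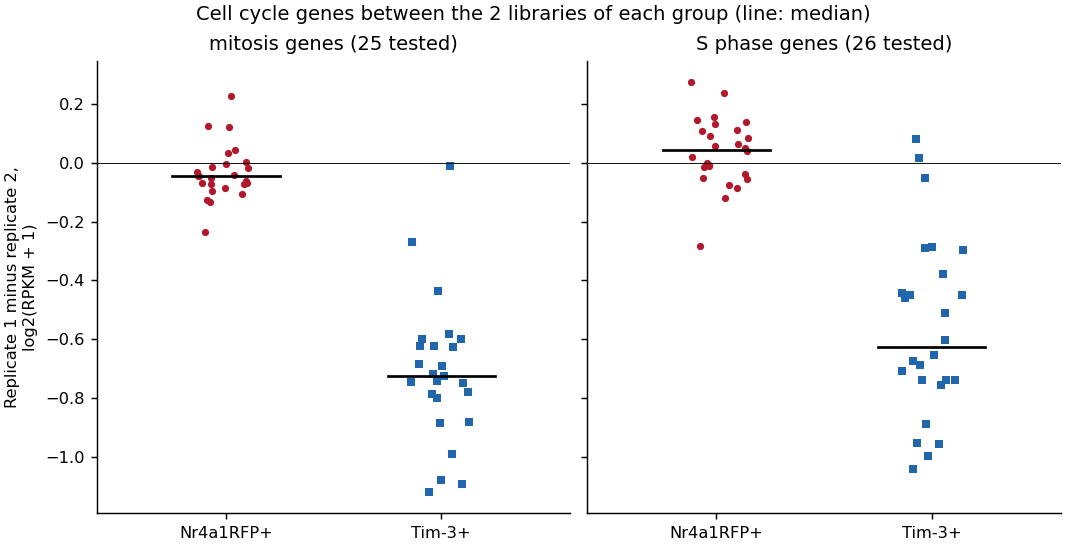
Replicate 1 minus replicate 2 in log2(RPKM + 1) for each tested mitosis gene (left panel, 25 genes) and S phase gene (right panel, 26 genes) within Nr4a1RFP+ cells (red) and Tim-3+ cells (blue), with a line at the median. The Tim-3+ medians are -0.73 and -0.63 and the Nr4a1RFP+ medians lie within 0.05 of 0.

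Called shares of other basic programmes ran from 0% in either direction for oxidative phosphorylation to 26.7% lower for phosphatase and Sprouty feedback genes. Over all genes tested, 9.08% were higher and 8.61% lower. Of 29 T cell receptor signalling genes, all tested, 2 were called higher (6.9%) and 1 lower (3.45%, median -0.10). The higher ones were the diacylglycerol kinase genes Dgka (0.67) and Dgkz (0.55), and neither passed without Nr4a1RFP+ replicate 1 (adjusted p = 0.0607 and 0.148) or replicate 2 (adjusted p = 0.104 and 0.146). The lower one was Themis, an adaptor of developing and resting T cells, at 8.82 and 8.18 RPKM in Nr4a1RFP+ cells and at 16.5 and 16.85 RPKM in Tim-3+ cells (-0.90). None of 23 oxidative phosphorylation genes passed in limma (median -0.18), 3 were lower at an unadjusted p under 0.05, and edgeR and DESeq2 on recovered reads called 1 and 2 lower, as against 3 with a replicate block. Without Tim-3+ replicate 2, 11 were called lower and 2 higher. That fit, which rested on the spread of the Nr4a1RFP+ pair, also called 9 T cell receptor signalling genes lower, while 6 were called lower without Tim-3+ replicate 1, 2 with a replicate block, 3 by edgeR and 5 by DESeq2. Of 22 glycolysis and hypoxia genes tested from a list of 24, 2 were higher (9.09%) and 1 lower (4.55%). The higher ones, Hk2 (0.45) and Egln3 (0.54), passed neither with no filter (adjusted p = 0.0566 and 0.0598) nor without Nr4a1RFP+ replicate 1 (adjusted p = 0.236 and 0.222) or replicate 2 (adjusted p = 0.338 and 0.068). Without Tim-3+ replicate 2 the higher count was 6 and the lower count 2, and without Tim-3+ replicate 1 the lower count was 4. The lower count was also 2 by edgeR, by DESeq2 and in limma without a trend. The lower one was the glucose transporter gene Slc2a3, at 18.1 and 17.1 RPKM against 40.6 and 41.0 RPKM (-1.17, adjusted p = 0.000542). Of 16 MHC class I and antigen processing genes, 1 was called lower (median -0.26), with 0 lower without either Nr4a1RFP+ library, 4 lower without either Tim-3+ library and 3 by DESeq2. Of 14 BCL-2 family genes tested from a list of 17, 2 rose and 1 fell, and the survival gene Bcl2 was at 6.28 and 7.03 RPKM in Nr4a1RFP+ cells, against 3.44 and 2.83 RPKM in Tim-3+ cells (0.89, adjusted p = 0.00353). The 2 that rose were 1 without either Nr4a1RFP+ library or with 1 RPKM required in all 4, and the 1 that fell was 0 without either Nr4a1RFP+ library, with no filter or by edgeR, 3 without Tim-3+ replicate 1, with a block or by DESeq2, and 6 without Tim-3+ replicate 2. The 15 phosphatase and Sprouty feedback genes tested from a list of 16 had a positive median (0.33). At an unadjusted p under 0.05 in limma, 8 were higher and 5 lower. Of the 15, 2 were called higher and 4 lower, with Dusp14 at 1.03, Rgs10 at 1.15, Dusp5 at -1.21 and Rgs1 at -1.62. The number called higher was 6 with a block and 4 by DESeq2. Of 12 heat shock genes, all tested, 2 were lower, Hspa1b (-0.83) and its near-identical copy Hspa1a (-0.70), which lost its call with Nr4a1RFP+ replicate 2 left out (adjusted p = 0.159). Without Tim-3+ replicate 2 the count was 4.

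Several of the widest changes lay outside the pathway lists. Dapl1, a gene with high expression in naive and stem-like CD8+ T cells, was at 94.7 and 105 RPKM in Nr4a1RFP+ cells, against 0.719 and 1.33 RPKM in Tim-3+ cells (5.65, SE 0.16, adjusted p = 3.01e-05), the largest increase among the genes named by the rule. Igfbp2, a binding protein for insulin-like growth factors, was at 58.0 and 74.9 RPKM against 1.75 and 3.5 RPKM (4.25). Igsf3, an immunoglobulin superfamily gene, was at 11.7 and 14.8 RPKM against 0.156 and 0.386 RPKM (3.48). Slc2a6, a hexose transporter gene, was at 12.7 and 13.7 RPKM against 0.350 and 0.271 RPKM (3.44), the opposite direction to Slc2a3. Lrig1, a negative regulator of growth factor receptors that marks stem cells in epithelia, was at 8.61 and 10.96 RPKM against 0.262 and 0.0934 RPKM (3.19), and Lrrc32, which encodes the latent TGF-beta anchor GARP, was at 6.92 and 9.45 RPKM against 0.136 and 0.260 RPKM (2.93). Igsf3, Slc2a6, Lrig1 and Lrrc32 stayed under 1 RPKM in both Tim-3+ libraries and so were tested through Nr4a1RFP+ cells alone.

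On the lower side, Ltf, which encodes lactoferrin, was at 0.267 and 0.175 RPKM in Nr4a1RFP+ cells and at 6.73 and 10.96 RPKM in Tim-3+ cells (-2.98), although lactoferrin is best known as a neutrophil granule protein. Ltf was tested through Tim-3+ cells alone. Of 6 neutrophil markers 2 were listed, S100a8 and Mmp9, and both stayed at or under 0.423 RPKM in all 4 libraries. The source of the Ltf reads was not tested. Fgl2, an immunoregulatory fibrinogen-like protein, was at 4.06 and 2.79 RPKM against 28.6 and 25.2 RPKM (-2.67). Osgin1, an oxidative stress gene, was at 2.53 and 1.07 RPKM against 20.52 and 17.4 RPKM (-2.88). Groups did not overlap for any of these 3 genes, which the rule that picked them required.

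Markers of other cell types were near the floor for the most part, but a set shared with mature dendritic cells was higher in Nr4a1RFP+ cells. Of 18 dendritic cell markers 16 were listed and 13 tested, with 8 called higher (61.5%) and 1, Xcr1 (-1.01), called lower (7.69%, median 0.76). Their summed level was 4092 and 4545 RPKM in Nr4a1RFP+ cells, against 398 and 459 RPKM in Tim-3+ cells, most of it Ccr7. Cd83 was at 191 and 231 RPKM in Nr4a1RFP+ cells and at 10.2 and 10.4 RPKM in Tim-3+ cells (4.22). Cd74, the invariant chain of MHC class II, was at 79.7 and 112.5 RPKM against 12.4 and 13.3 RPKM (2.79), and Dnase1l3, Ccl22, Zbtb46, H2-Eb1 and Fscn1 were the other genes called higher. Dnase1l3, Ccl22 and Fscn1 were tested through Nr4a1RFP+ cells alone, and 5 were called higher with 1 RPKM required in all 4 libraries. Without Nr4a1RFP+ replicate 2, H2-Eb1 (adjusted p = 0.139) and Fscn1 (adjusted p = 0.0974) did not pass, and Fscn1 did not with no filter (adjusted p = 0.0697) or a pseudocount of 5 (adjusted p = 0.0556). The lineage receptor Flt3 was at or under 0.0218 RPKM and Siglech at or under 0.0206 RPKM in all 4 libraries, and the class II genes H2-Aa (0.09, adjusted p = 0.722) and H2-Ab1 (0.14, adjusted p = 0.461) did not pass. The part of such cells in the values of Ccr7 and Cd83 was not tested.

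Of 15 macrophage and monocyte markers 14 were listed and 7 tested, with 1 called higher (Cd68, 1.52) and 4 lower. Their sum was 177 and 143.5 RPKM in Nr4a1RFP+ cells, against 503 and 418 RPKM in Tim-3+ cells, most of it Ly6c2, which T cells also express, and Csf1r and Adgre1 reached at most 0.131 RPKM. Of 10 B cell markers 6 were listed and 1 tested, Cd79b (0.49), with sums of 2.74 and 3.80 RPKM against 2.94 and 2.39 RPKM. Cd79b was tested through Nr4a1RFP+ cells alone and lost its call with Nr4a1RFP+ replicate 2 left out (adjusted p = 0.195), by edgeR (adjusted p = 0.0844) and by DESeq2 (adjusted p = 0.219). Of 10 NK and innate lymphocyte markers 7 were listed and 6 tested, with 0 higher and 3 lower, namely Nkg7, Fcer1g and Tyrobp, which cytotoxic T cells share. Of 13 tumour and stromal markers 8 were listed and 3 tested, with Pmel (0.70) and Pecam1 (0.85) called higher and the sums at 17.2 and 16.9 RPKM against 9.69 and 9.46 RPKM. Leaving out Nr4a1RFP+ replicate 1 ended the call of Pmel (adjusted p = 0.0535). Of the 6 CD4 and regulatory T cell markers 3 were tested and Ikzf2 was the 1 called, with Foxp3 at or under 0.106 RPKM in every library. Haemoglobin transcripts varied between replicates: Hba-a1 was at 0.698 and 20.3 RPKM in Nr4a1RFP+ cells and at 7.04 and 10.2 RPKM in Tim-3+ cells (-0.65, adjusted p = 0.708).

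The genes at least 2-fold apart in the tumour were then read in cultured cells that received Nr4a1, which share no library with the tumour groups. Of the 273 genes higher in Nr4a1RFP+ cells, 254 were tested in culture, with 152 higher (59.8%) and 58 lower (22.8%) in Nr4a1-OV than in RV-GFP cells (edgeR) and a median log2 fold change of 0.64. Of the 220 genes lower in Nr4a1RFP+ cells, 181 were tested, with 56 higher (30.9%) and 71 lower (39.2%) and a median of -0.11. The background over the 9201 genes tested in both settings was 3235 higher (35.2%) and 3450 lower (37.5%). The shares among the genes lower in the tumour were near this background. The shares among the genes higher in the tumour stood apart from it, a difference that was not tested.

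Nr4a1 itself was at 5410 and 5182 CPM (counts scaled to library size) in Nr4a1-OV cells and at 1808 and 1977 CPM in RV-GFP cells. Ccr7 rose too, at 1409 and 1543 CPM in Nr4a1-OV cells, against 149.7 and 161 CPM in RV-GFP cells (log2 fold change 3.08, adjusted p = 3.51e-19). Tcf7 was at 329.8 and 337 CPM against 132.5 and 134 CPM (1.16, adjusted p = 1.22e-11), Myb was at 310.3 and 303 CPM against 54.6 and 57.8 CPM (2.28), and Ikzf2 was at 179 and 169 CPM against 19.02 and 17.2 CPM (3.10). These 4 genes were higher in both settings. Ifng was at 822 and 860.2 CPM in Nr4a1-OV cells and at 4105 and 4263 CPM in RV-GFP cells (-2.48), and Gzmb (-1.01), Ccl3 (-2.22), Ccr2 (-2.80), S100a4 (-2.12) and S100a6 (-2.18) were lower in both settings as well. These lower genes are examples from a set whose shares in culture, 39.2% lower and 30.9% higher, were near background.

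Other genes went opposite ways in the tumour and in culture. Slamf6, higher in Nr4a1RFP+ cells, was lower in Nr4a1-OV cells, at 98.7 and 95.5 CPM against 248 and 242 CPM in RV-GFP cells (-1.50, adjusted p = 1.11e-13). Id3 (-1.12), Csf2 (-2.05), Il3 (-2.79), Tnfsf11 (-1.04) and Btla (-0.66) also rose in the tumour comparison and fell in culture. Ccl5 (1.34), Gzma (0.61) and Cd200r1 (3.31) fell in Nr4a1RFP+ cells and rose in Nr4a1-OV cells. Chosen after their values were seen, 3 genes outside the lists had wide increases in both settings. Tbc1d4, a regulator of glucose transporter traffic, was at 137 and 132.5 CPM in Nr4a1-OV cells and at 4.99 and 5.68 CPM in RV-GFP cells, with 15.7 and 18.95 RPKM in Nr4a1RFP+ cells and 5.44 and 5.94 RPKM in Tim-3+ cells. Sdc4, a syndecan, was at 55.9 and 61.3 CPM against 1.37 and 1.72 CPM in culture, and Rasgef1a, a Ras exchange factor gene, was at 24.8 and 22.7 CPM against 1.37 and 1.12 CPM.

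**Figure D5:**
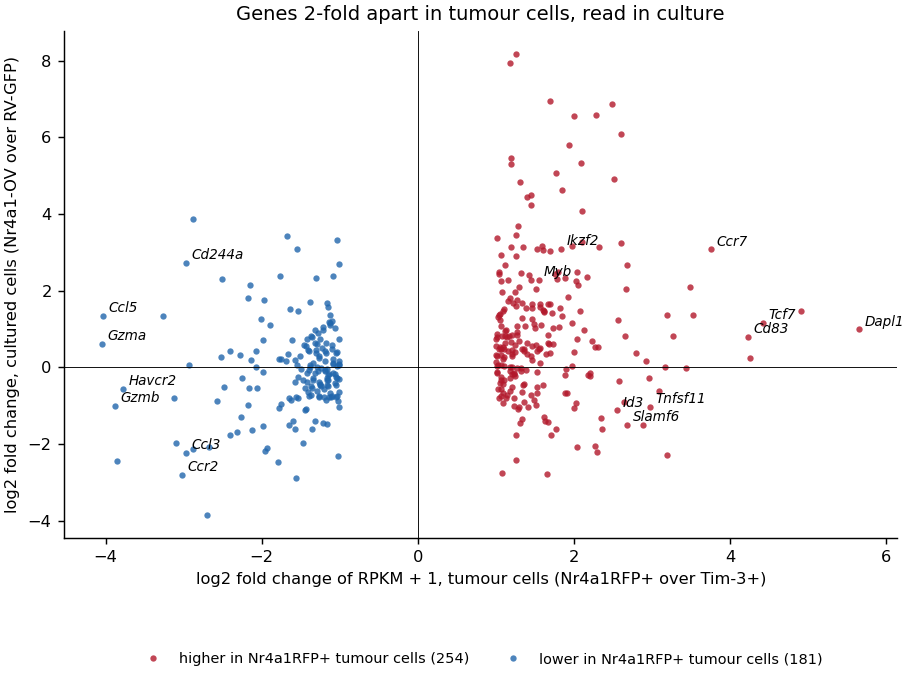
Genes at least 2-fold apart in the tumour comparison and tested in culture (254 higher in red, 181 lower in blue), with the tumour log2 fold change (Nr4a1RFP+ over Tim-3+) on the x axis and the culture log2 fold change (Nr4a1-OV over RV-GFP) on the y axis. The red points have a median of 0.64 and the blue points a median of -0.11 on the y axis.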

How the data were processed

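Per the submitters' processing notes, the authors used Trim Galore, HISAT2, edgeR and DESeq2 with the mm10 genome. For tool versions, the read counter, the annotation and whether BGI or Smartseq2 libraries were made from these cells, the sources used here give nothing. Tumour values are RPKM deposited by the authors. Columns named for exhausted cells were taken as Tim-3+, since these 2 groups are the sorted populations the labels describe, and 2 further columns of values matched no labelled sample and were not used. The authors' deposited fold changes and p-values were not used. Culture values are read counts deposited by the authors, with 16.8 to 17.1 M counts per library, and CPM was computed from them here.

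Genes that reached 1 RPKM in 2 or more libraries entered the test on log2(RPKM + 1) with limma 3.58.1 (trend, two-sided, Benjamini-Hochberg over all genes tested) in R 4.3.3, after a check on simulated data. Dividing by gene lengths from the culture table gave whole reads (within 0.05) for 97.8% to 98% of tumour values under 200 reads, over the 88.7% of genes with a length. Recovered depth was 22.1 and 23.5 M reads (Nr4a1RFP+) and 17.7 and 24.1 M reads (Tim-3+). Culture counts were tested with edgeR 4.0.16 (filterByExpr, TMM, quasi-likelihood) in 1 model of 8 libraries, leaving out 19 symbols that had been turned into dates. Other pseudocounts, filters, scalings, a replicate block, each library left out, and edgeR and DESeq2 1.42.0 on recovered reads were tried. When a library is left out, the lone library of its group is assumed to vary like the other group.

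The members, lists and tests were chosen with earlier results of these data known. Named genes are list members chosen by role, the 20 highest and 20 lowest log2 fold changes among called genes whose groups do not overlap (mean log2(RPKM + 1) of at least 1, named symbols), the 10 most abundant genes per group, and the 10 largest differences within each group. T cell receptor segments were not analysed here, and some genes are not reported here. Gene names are as in the table. Promoters are from RefSeq (GRCm38.p6), matched by symbol for 7707 of the 9508 genes tested. Figures were drawn with matplotlib 3.10.9.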

Additional observations from a re-analysis of the deposited data

How the results depend on the processing

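The tumour counts of 1682 genes called, 863 higher and 819 lower depended most on which libraries set the spread. With each library left out in turn they ranged from 763 to 3359 called, from 415 to 1599 higher and from 348 to 1760 lower. The low ends came without Nr4a1RFP+ libraries, when the less alike Tim-3+ pair alone gave the spread. The counts of 2-fold changes (273 higher, 220 lower) moved with the scale: a pseudocount of 0.1 gave 340 lower, a pseudocount of 5 gave 104 higher and 109 lower, and requiring 1 RPKM in all 4 libraries gave 163 higher. On recovered reads edgeR gave 642 higher and 434 lower and DESeq2 gave 595 higher and 411 lower, from fold changes without the pseudocount. Of 218 called genes among the named ones, 0 reversed, 28 lost the call under some alternative other than a library left out (27 with no filter) and 84 when 1 library was left out. Of the uncalled ones, 171 passed under some alternative, among them 106 and 98 without Tim-3+ replicate 1 or replicate 2, 57 by DESeq2 and 43 with a replicate block. The uncalled haemoglobin genes passed in opposite directions without Nr4a1RFP+ replicate 1 or replicate 2, with log2 fold changes of 1.17 and -2.48 for Hba-a1, 1.11 and -2.93 for Hba-a2, 1.25 and -2.55 for Hbb-bs, and 1.23 and -2.02 for Hbb-bt. With the replicate number as a block, 2143 genes were called (1053 higher, 1090 lower), and mitosis genes called lower numbered 21. Deviations of same-numbered libraries correlated at r = 0.219 across genes, which with 2 pairs leaves unknown whether equal numbers mean a shared origin. With 2 libraries per group, depth limits genes near 1 RPKM most.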
